A study of Homo sapiens with 2 samples.

Results

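Barcodes in which more than 20% of the gene UMIs (unique molecular identifiers, 1 per captured transcript) came from mitochondrial genes were taken from a droplet single-cell experiment on OVCAR5 cells, an ovarian carcinoma line. The rule found 576 of 7804 barcodes, a share of 7.38% (exact 95% binomial interval 6.81 to 7.98%). The barcodes were chosen by the mitochondrial share itself, which is therefore given as a description and not as a result. They are a range of a measure and not a cell type.

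All cells had the genotype label IFNy-sensing reporter, CFP+, in every condition, controls included, and how the line was derived is not stated in the labels. The labels list 18 conditions in 1 pool: 16 combine interferon-gamma at 0, 1, 10 or 100 ng/ml with 2, 6, 12 or 24 h of exposure, and 2 are frozen cells, unstimulated or at 100 ng/ml for 24 h. The pool gave 2 libraries, one for gene expression and one for 8 antibody hashtags, and cells carried hashtags in pairs. Which pair marks which condition could not be read from the labels or the matrix. The pairs are therefore named by their numbers, and doses, times and freezing are not compared. With 1 pool there are no replicates and no tests, and every interval covers counting error only.

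Mitochondria keep their own small genome, whose mRNAs stay inside the organelle. In a cell with a leaking plasma membrane, free cytosolic mRNA can be lost while RNA held in mitochondria, in the nucleus or on the endoplasmic reticulum can be retained, and a high mitochondrial share is widely used to filter out damaged cells. This is background, and which cells were damaged was not measured here.

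At the median, barcodes over 20% held about as many mitochondrial UMIs as other cells and far fewer of everything else. Mitochondrial UMIs had a median of 4142 per barcode over 20%, against 3554 in the 7228 barcodes at or under 20%. Their lower quartile was 2124 against 2762, so the low end held fewer than in other cells. Non-mitochondrial UMIs had a median of 591.5 against 27551.5, and genes detected a median of 386 against 5577.5. Of the 576 barcodes, 465 were over 50% mitochondrial and 335 over 80%, while 61 lay between 20 and 30%. Next to the limit, the 71 barcodes at 18 to 20% had a median of 18619 non-mitochondrial UMIs and the 30 at 20 to 22% had 18093.5. Barcodes just inside and just outside the limit were thus alike in depth, and both lay below the median of 27551.5. The shortfall of non-mitochondrial RNA was present below the limit and was larger further up the range. Among barcodes with a hashtag pair, the median was 26242 at 10 to 15%, 21373 at 15 to 20%, 17043 at 20 to 25% and 524 over 50%.

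The barcodes were described in 2 ranges, split at 500 detected genes: 242 gene-rich barcodes with at least 500 genes and 334 gene-poor barcodes with fewer. The split cuts a continuous spread, with 52 of the 576 between 400 and 600 genes. Gene-rich barcodes had medians of 4764 mitochondrial and 3517 non-mitochondrial UMIs. Gene-poor barcodes had medians of 3512 mitochondrial and 319.5 non-mitochondrial UMIs, a median mitochondrial share of 90.3%. Their lower quartile of mitochondrial UMIs was 920.5, against 2762 at or under 20%. Hashtag UMIs had a median of 1040 in gene-rich and 577 in gene-poor barcodes, against 1445 in the rest. Set against cells at or under 20% of the same hashtag pair, gene-rich barcodes held 134% of the mitochondrial UMIs per barcode and 18.6% of the non-mitochondrial UMIs. For gene-poor barcodes these shares were 105% and 1.37%.

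**Figure D1:**
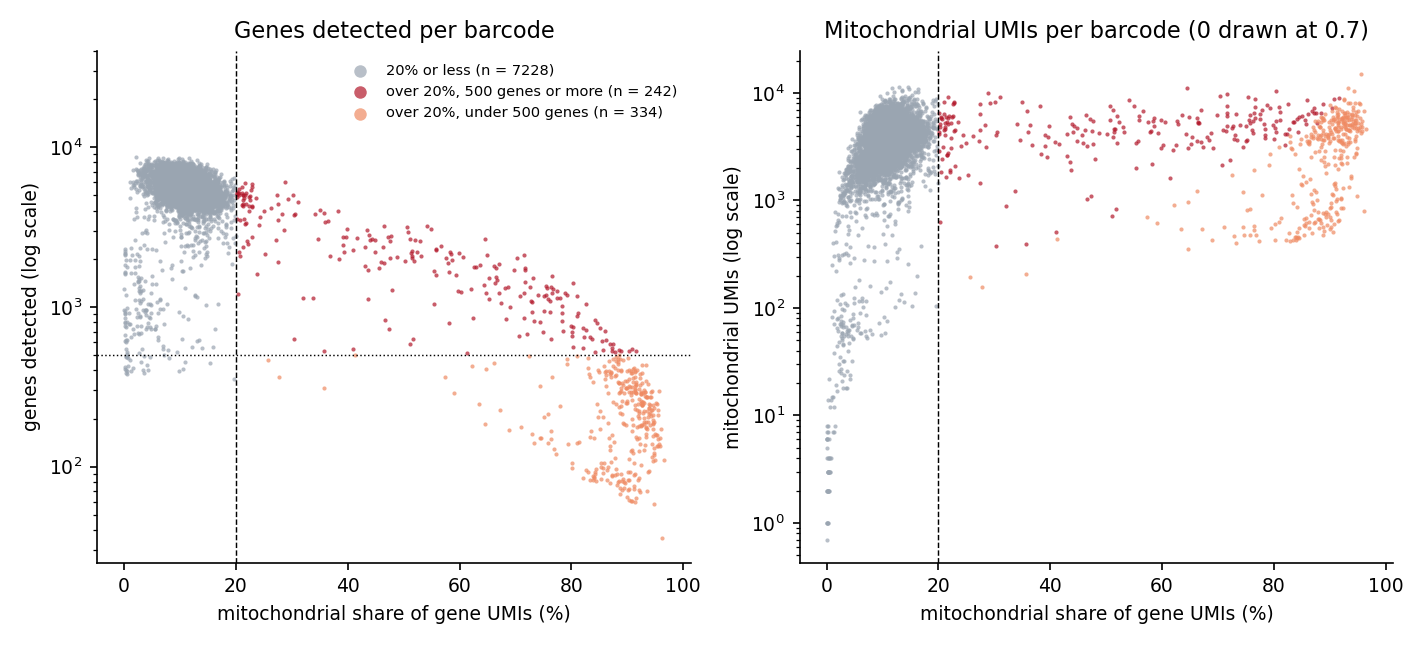
Each point is 1 barcode. The horizontal axes give the mitochondrial share of gene UMIs (%), the left vertical axis genes detected and the right vertical axis mitochondrial UMIs, both on log scales, with the 20% limit dashed and 500 genes dotted. Genes detected are lower along the share, down to a median of 217 in the gene-poor barcodes, while the median of mitochondrial UMIs, 4142 over 20%, is near the 3554 of the 7228 others.

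Among the genes counted as non-mitochondrial, the 5 highest relative to other cells were MTRNR2L12, MTRNR2L8, MTRNR2L1, MTRNR2L10 and MTRNR2L6. These are nuclear copies of MT-RNR2, the mitochondrial 16S ribosomal RNA, and MT-RNR2 itself is not among the 13 mitochondrial genes of the matrix. Their sequences are shown because the copies are close enough for reads to be shared. The lines give the short open reading frame of the 3 most counted copies beside the same stretch of MT-RNR2, 5′ to 3′ on the transcript, with bases that differ from MT-RNR2 in capitals (GENCODE 29, GRCh38). MT-RNR2 is at chrM:2633-2707 on the plus strand, MTRNR2L12 at chr3:96617199-96617273 on the minus strand, MTRNR2L8 at chr11:10508152-10508226 on the minus strand, and MTRNR2L1 at chr17:22524062-22524136 on the plus strand. The 3 nuclear stretches are exonic and coding, stop codon included.
MT-RNR2: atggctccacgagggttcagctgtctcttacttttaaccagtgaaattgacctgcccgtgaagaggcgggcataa
MTRNR2L12: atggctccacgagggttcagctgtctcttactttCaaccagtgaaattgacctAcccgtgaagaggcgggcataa
MTRNR2L8: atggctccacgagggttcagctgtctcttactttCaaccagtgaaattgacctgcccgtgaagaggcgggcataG
MTRNR2L1: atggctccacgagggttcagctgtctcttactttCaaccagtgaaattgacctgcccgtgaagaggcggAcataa
Each of the 3 copies differs from MT-RNR2 at 2 of these 75 bases. Over the whole aligned transcript, 996 of 1048 positions were identical in MTRNR2L12, 1211 of 1302 in MTRNR2L8 and 1373 of 1543 in MTRNR2L1. MTRNR2L12 had 13919 UMIs over 20%, where 793 were expected from cells at or under 20% of the same pairs, and MTRNR2L1 had 13891 against 916.

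Barcodes over 20% had 18.5 UMIs of the 11 MTRNR2L genes in the matrix per 1000 mitochondrial UMIs, and other barcodes had 14.9. The same ratio per hashtag pair ran from 15.5 to 22.5 (median 19.2) over 20% and from 13.6 to 17.4 (median 15.3) at or under 20%, and was higher over 20% in 17 of 18 pairs. As part of the non-mitochondrial UMIs, these genes made up 1.62% in gene-rich barcodes, 19.2% in gene-poor barcodes and 0.195% in the cells they were matched to. How many of these reads came from MT-RNR2 was not tested. Counting them as mitochondrial left the share of barcodes over 20% at 7.46%.

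The share over 20% was far higher in hashtag pairs 1+5 and 2+5 than in the 16 other pairs. A pair could be read in 460 of the 576 barcodes (79.9%) and in 6127 of the 7228 others (84.8%). Pair 1+5 had 69 of 312 barcodes over 20%, a share of 22.1% (17.6 to 27.1%), and pair 2+5 had 69 of 236, or 29.2% (23.5 to 35.5%). The other pairs ran from 2.42% in pair 2+4 to 8.90% in pair 4+7, with a median of 5.25%. The intervals of both pairs lay above those of all 16 others. Together the 2 pairs held 138 of the 460 barcodes (exact interval of the share 25.8 to 34.4%), against 410 of the 6127 others (6.69%). Barcodes without a readable pair were over 20% in 116 of 1217 cases (9.53%).

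No single hashtag carried this excess. With the 2 pairs left out, the share was 4.83% for hashtag 1, 3.40% for hashtag 2 and 5.85% for hashtag 5, all within the range of the other pairs. In cells at or under 20%, the median mitochondrial share was 11.1% in pair 1+5 and 11.8% in pair 2+5, inside the 10.5 to 12.4% of the other pairs. Their median depth of 31787 and 30393 UMIs was also inside the range of 27799 to 32945. On 2 other measures these cells lay outside the range. Their median of mitochondrial UMIs was 3760 in pair 2+5, above the 3291 to 3684 of the other pairs, and 3432 in pair 1+5. Their median of hashtag UMIs was 970 in pair 1+5, below the 1041.5 to 1783 of the others, and 1606 in pair 2+5. Over 20%, the hashtag medians were 764 in pair 1+5 and 1317 in pair 2+5, against 565.5 to 1210 (median 882) in the others. The part of hashtag signal in the shares was not tested.

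The excess lay in barcodes far above the limit. Over 50% mitochondrial were 69 of 312 barcodes (22.1%) in pair 1+5 and 64 of 236 (27.1%) in pair 2+5, against 1.21 to 8.01% (median 3.68%) in the others. Between 20 and 50% lay 0 of 312 barcodes in pair 1+5, which allows a share of up to 1.18% by its exact interval, and 5 of 236 (2.12%) in pair 2+5. The other pairs together had 73 of 6039 in that range. By these counts the 2 pairs together were at 24.3% over 50% (20.7 to 28.1%) against 4.12% in the rest (3.64 to 4.66%). Between 20 and 50% they were at 0.912% (0.297 to 2.12%) against 1.21% (0.949 to 1.52%), where the intervals overlap.

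Both ranges of gene number contributed. Gene-poor barcodes made up 15.4% of pair 1+5 and 15.3% of pair 2+5, against 0.588 to 5.64% of the others. Gene-rich barcodes were 33 of 236 in pair 2+5 (interval of the share 9.82 to 19.1%) and 6.73% in pair 1+5 (4.21 to 10.1%), against 0.765 to 5.23% of the others. The interval of pair 1+5 for gene-rich barcodes overlaps those of 8 of the 16 other pairs, so its share is not separated from theirs at this number of barcodes.

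**Figure D2:**
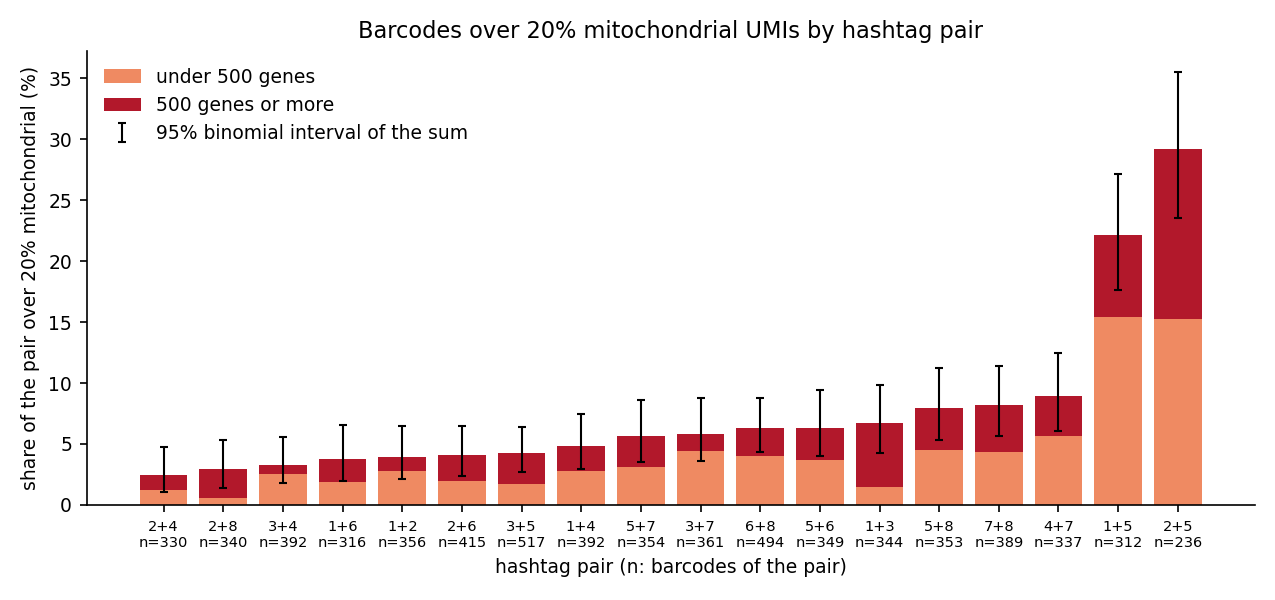
Bars give the share of each hashtag pair's barcodes (%) over 20% mitochondrial UMIs, split into barcodes under 500 genes and with 500 genes or more, and black lines the exact 95% binomial interval of the sum. Pairs 1+5 (22.1%) and 2+5 (29.2%) stand above the other 16 pairs, of which the highest is 4+7 at 8.90%.

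The RNA that remained was then compared with that of cells at or under 20% of the same pair, as the ratio of observed to expected UMIs within the non-mitochondrial total. This uses the 460 barcodes with a pair, 199 of them gene-rich and 261 gene-poor. A ratio of 1 means that a gene kept its place among non-mitochondrial transcripts, and not that its UMIs per barcode were kept. Of 6780 genes with enough UMIs (observed plus expected of at least 40), 439 (6.47%) had a ratio of at least 2 and 27 (0.398%) a ratio of at most 0.5. Leaving out pairs 1+5 and 2+5 brought the first count to 286, and giving each barcode equal weight brought the second to 456. In both alternatives the number of genes with enough UMIs can differ from 6780, so these are counts and not shares. In gene-rich barcodes alone, 505 of 6543 genes (7.72%) were at least 2-fold higher and 30 (0.459%) at least 2-fold lower. In gene-poor barcodes 6 of 710 genes (0.845%) were at least 2-fold higher and 52 (7.32%) at least 2-fold lower. Of all counted genes, 3682 of 6543 had a ratio above 1 in gene-rich barcodes and 124 of 710 in gene-poor ones, and the counts of list members that follow are to be read beside these. Since all barcodes together are dominated by the deeper ones, the 2 ranges are described apart.

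Nuclear long noncoding RNAs stood out in gene-rich barcodes. MALAT1, a nuclear speckle RNA, had a median of 86 UMIs per gene-rich barcode (lowest 0, highest 905) against 147 in barcodes at or under 20%. RPLP1, a ribosomal stalk protein mRNA, had a median of 16 (lowest 1, highest 262) against 206. The MALAT1 median was thus nearer that of other cells than the RPLP1 median was. Of gene-rich barcodes, 87 of 242 (36.0%) reached the MALAT1 median of other cells while 6 (2.48%) reached that of RPLP1. MALAT1 was also more spread among other cells, with quartiles of 68 and 280, against 162 and 270 for RPLP1. Both shares depend on that spread as well as on the level kept. Gene-rich barcodes were not uniform: 32 of 242 (13.2%) had fewer than 10 MALAT1 UMIs and 111 (45.9%) had at least 100.

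Relative to expectation, MALAT1 was 3.81-fold higher in gene-rich barcodes and NEAT1, the scaffold of paraspeckles, 3.61-fold. Per barcode they held 73.6% and 65.1% of the matched level, against 18.6% for all non-mitochondrial UMIs. TUG1 was 2.15-fold higher and OIP5-AS1 1.34-fold. The list of nuclear-retained long noncoding RNAs had a summed ratio of 3.73, with 5 of its 7 counted genes at least 2-fold higher and all 7 above 1, beside 7.72% of all genes. Per pair the ratio ran from 1.24 to 8.95 (median 4.16) and was above 1 in all 18 pairs. MALAT1 carries most of this sum, with 28687 of the 34003 UMIs.

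Other long noncoding RNAs near the top were FTX (4.24-fold), from the X inactivation centre, KCNQ1OT1 (3.57-fold), an imprinted antisense RNA, AC016831.1 (4.07-fold), GABPB1-AS1 (3.45-fold) and LINC00472 (3.43-fold). The sources used here do not state whether counting used strand, so the antisense genes may share reads with their partners. Of 138 long noncoding genes counted in gene-rich barcodes, 58 were at least 2-fold higher and 1 at least 2-fold lower, with a median ratio of 1.68 against 1.06 for 6399 protein-coding genes. The list of unnamed and antisense long noncoding genes had a ratio of 1.79, with 36 of 90 counted genes at least 2-fold higher.

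mRNAs translated on the endoplasmic reticulum also lay above expectation in gene-rich barcodes. Membrane and secreted protein genes had a summed ratio of 1.55, with 58 of 59 counted genes above 1 (all genes 3682 of 6543) and 11 at least 2-fold higher (all genes 7.72%). Per pair the ratio ran from 0.84 to 2.31 and was above 1 in 16 of 18 pairs. APLP2, an amyloid precursor family membrane protein, was 1.90-fold higher, ITGB1, the integrin beta 1 chain, 1.58-fold, CD81 1.24-fold and CD63 1.13-fold. ER chaperone and translocon genes had a ratio of 1.32, with 34 of 41 counted genes above 1, beside 3682 of 6543. Their ratio per pair ran from 0.44 to 1.80 and was above 1 in 15 of 18 pairs. HSP90B1 was 1.47-fold higher, PDIA6 1.38-fold and CALR 1.28-fold, whereas SEC61G, a small translocon subunit, was at 0.80. With each barcode given equal weight, the ER list over all barcodes went from 1.26 to 0.924. SLC2A1, the glucose transporter, was 1.69-fold higher. Nuclear speckle and splicing genes had a ratio of 1.36, with 27 of 28 counted genes above 1, among them DDX5 at 1.17, while SRSF3 was at 0.63. With the limit at 15% the splicing list of all barcodes went from 1.31 to 0.983.

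Transcripts of cytosolic and mitochondrial housekeeping proteins lay below expectation in gene-rich barcodes, by less. Cytosolic ribosomal protein genes had a ratio of 0.81, with 81 of 82 counted genes below 1 and none at or under 0.5. RPLP1 was at 0.88, RPS2 at 0.77 and RPL8 at 0.78. Nuclear-encoded respiratory chain genes had a ratio of 0.79 (51 of 55 below 1), with ATP5MC3 at 0.65 and CYCS, cytochrome c, at 0.58. Mitochondrial matrix and import genes (0.77), cytoskeleton genes (0.79, ACTB at 0.85), glycolysis genes (0.82, GAPDH at 0.80) and constitutive proteasome genes (0.79) were similar. The iron store subunit FTL was at 0.67 and FTH1 at 0.83, in an oxidative stress list at 0.76 that was at 1.07 over all barcodes with the limit at 15%.

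Replication-dependent histone mRNAs, which lack a poly(A) tail in their usual form, were the lowest in gene-rich barcodes among the lists with at least 1 counted gene. Their summed ratio was 0.47 and was below 1 in all 16 pairs with enough UMIs (0.08 to 0.98). HIST1H1B was at 0.29 with 27 UMIs observed and 92.4 expected, HIST1H1D at 0.30 and HIST1H4C at 0.33. Of 7 counted genes, 4 were at or under 0.5, beside 0.459% of all genes. Mitotic genes among the lowest were UBE2C (0.40), a ubiquitin enzyme of mitotic exit, CENPA (0.46), the centromere histone, and CKS2 (0.51). The G2/M list as a whole was at 0.81 (40 of 53 below 1, 3 at or under 0.5) and the S phase list at 0.83 (26 of 30 below 1). Fewer cycling cells and less RNA per cell cannot be told apart here. The other lowest genes were KRT81, ISCA2, LINP1, CAMLG, MMADHC and MEA1, at 0.47 to 0.51.

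Stress and death programmes differed in gene-rich barcodes. The p53 target list had a ratio of 1.03, immediate early genes 1.06 and cell death genes 1.08, beside a median of 1.07 over all genes. The integrated stress response list was at 1.18 (1.10 to 1.26) and above 1 in 13 of 15 pairs. Cytosolic heat shock genes were at 0.94. BAX, a pore-forming death effector, was at 0.79 and PMAIP1 at 0.68, while ATF4, the stress response activator, was at 1.73 and SLC7A11, the cystine importer, at 1.81. BAX and PMAIP1 do not stand for their lists, since 7 of 10 counted p53 targets and 13 of 24 cell death genes were above 1. In the integrated stress response list 8 of 12 counted genes were above 1. Other members of these lists are not named here. With the limit at 15% the immediate early list of all barcodes was at 0.963 and the integrated stress response list at 0.957, and with equal weight the cell death list was at 0.994. Hypoxia genes were at 1.52 (1.41 to 1.64). Of 11 counted genes 10 were above 1, beside 3682 of 6543 of all genes, and 2 at least 2-fold higher, beside 7.72%. Over all barcodes the hypoxia list was at 1.44, and its lowest value among the 10 alternatives was 1.01. Its member with most expected UMIs was SLC2A1, named above with the membrane and secreted protein genes. The part of such genes in the hypoxia ratio was not tested.

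The ratio also went with transcript length, taken as the longest basic transcript of GENCODE 29. In gene-rich barcodes the median ratio of protein-coding genes was 0.81 in the shortest of 5 groups of equal size (359 to 1753 nt), 0.94, 1.09 and 1.21 in the next 3, and 1.40 in the longest (5766 to 34526 nt). With ribosomal protein genes left out, the ends were 0.81 and 1.41. The part of length in the list ratios above was not tested. In gene-poor barcodes the medians ran the other way, from 0.88 in the shortest group to 0.71 in each of the longest 2.

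Among gene-rich barcodes, what remained differed along the mitochondrial share. Here levels are set against all barcodes of the same pairs. Nuclear-retained long noncoding RNAs held 70.8% of that level per barcode at 20 to 25%, 90.5% at 30 to 50% and 75.0% over 50%. Ribosomal protein mRNAs held 60.6%, 15.6% and 5.33% in the same bins. Membrane and secreted protein mRNAs held 75.7%, 46.9% and 14.8%, and histone mRNAs 39.6%, 6.65% and 2.97%. In proportion, the nuclear RNAs went from a ratio of 1.14 to 4.22 to 8.10, while the membrane list was highest at 30 to 50% (2.14) and lower over 50% (1.60). The bin at 25 to 30% held 5 barcodes and is left out of this order. At 15 to 20%, just outside the rule, the histone list was already at 0.77 and the ribosomal list at 1.01.

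**Figure D3:**
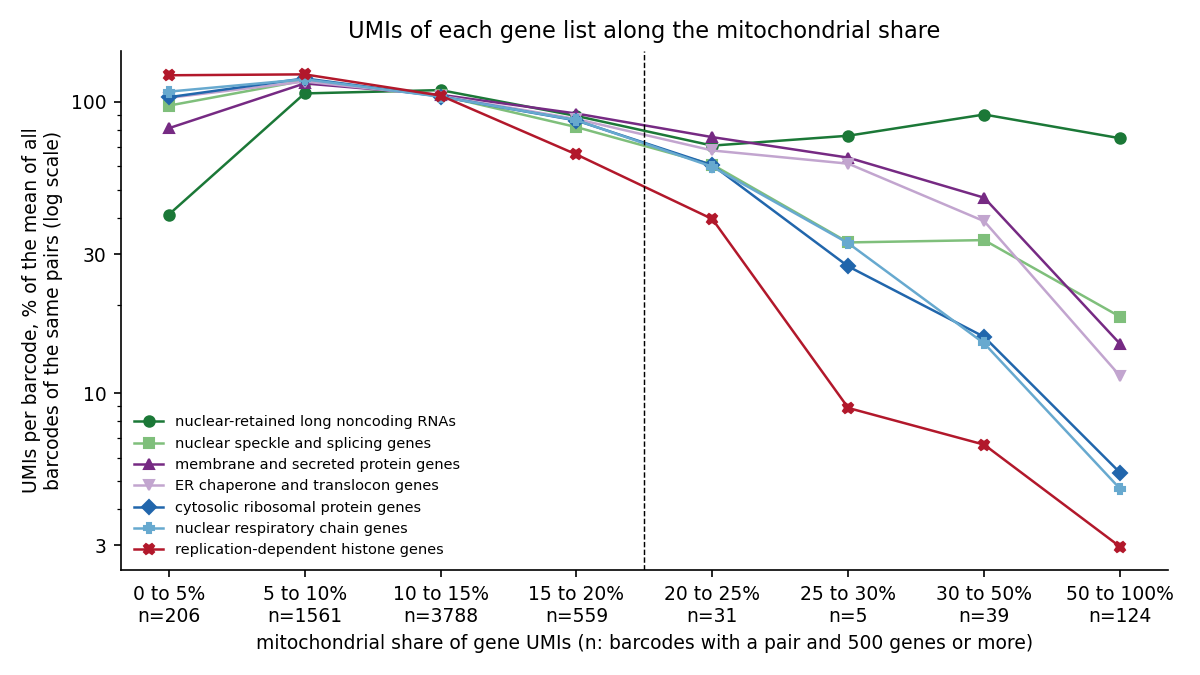
UMIs per barcode of 7 gene lists, as a percent of the mean of all barcodes of the same hashtag pairs (log scale), in bins of the mitochondrial share. Only barcodes with a pair and at least 500 genes are drawn, n is given under each bin, and the bin at 25 to 30% has 5. Above the dashed 20% limit the nuclear long noncoding RNAs stay at 70.8 to 90.5% while ribosomal protein mRNAs end at 5.33% and histones at 2.97%.

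Gene-poor barcodes held a different remnant. MALAT1 had a median of 1 UMI (lowest 0, highest 59), and 157 of 334 had none. RPLP1 had a median of 2 (lowest 0, highest 22), and 49 had none. With a median of 319.5 non-mitochondrial UMIs per barcode, such counts are low for any gene, and the ratios take depth into account. The nuclear-retained long noncoding list had a ratio of 0.72, and 0.88 with the MTRNR2L genes left out. That removal moves the median gene ratio by 0.31 on the log2 scale, from 0.80 to 0.997, and the values that follow are without these genes unless stated. Then 5 of 621 counted genes were at least 2-fold higher and 13 at least 2-fold lower than expected. The alternative was chosen after the data were seen.

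Ribosomal protein mRNAs lay above expectation in gene-poor barcodes, at 1.29 (1.27 to 1.30) with 74 of 78 counted genes above 1, beside a median of 0.997 over all genes. With MTRNR2L genes included, the list was at 1.04 (44 of 80 above 1, beside 124 of 710 of all genes), RPL21 at 1.93, RPS29 at 1.63, RPS19 at 1.57 and RPL31 at 1.54. Small nucleolar RNA host genes were at 1.37, with all 6 counted genes above 1. Among the lists below expectation were heat shock genes at 0.66, G2/M genes at 0.74, keratins at 0.79 and negative regulators of interferon signalling at 0.58, the last on 16 UMIs. Respiratory chain (1.02), proteasome (1.02) and splicing genes (0.95) were near 1, and the membrane list was at 0.92.

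The lowest genes in gene-poor barcodes are given with MTRNR2L genes included. HSP90AB1, a cytosolic chaperone, was at 0.43 with 72 UMIs observed and 169 expected, ARPC2, of the actin-nucleating Arp2/3 complex, at 0.49, EEF2, an elongation factor, at 0.50, and VIM, vimentin, at 0.51. NCL, HSPD1, HSP90AA1, WARS and TGM2 were all at 0.52. The 12 highest and 12 lowest genes of the gene-poor range were named by the same rule as the others, applied to this range after the data were seen.

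Gene-rich barcodes of pair 1+5 had the highest ratio of nuclear RNA to their own pair's cells among the 18 pairs. The nuclear-retained long noncoding list had a ratio of 8.95 in pair 1+5 (21 barcodes), above the range of 1.24 to 7.75 in the other pairs, while pair 2+5 (33 barcodes) lay inside that range. MALAT1 was at 59893 CPM (UMIs per 1000000 non-mitochondrial UMIs) in gene-rich barcodes of pair 1+5 against 6557 in its cells at or under 20%, and at 29077 against 6327 in pair 2+5. The highest part of MALAT1 was in pair 1+6, at 78665 CPM in 6 gene-rich barcodes. Splicing genes were at 2.41 in pair 1+5, above the 1.06 to 1.69 of the others, and at 1.63 in pair 2+5. Cytoskeleton genes, at 0.50, and ribosomal protein genes, at 0.52, were below the range of the others in pair 1+5 (lowest 0.57 for both), and at 0.72 and 0.77 in pair 2+5. All 21 gene-rich barcodes of pair 1+5 and 28 of the 33 of pair 2+5 were over 50% mitochondrial, against 75 of 145 in the other pairs, and the part of that share in these ratios was not tested.

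**Figure D4:**
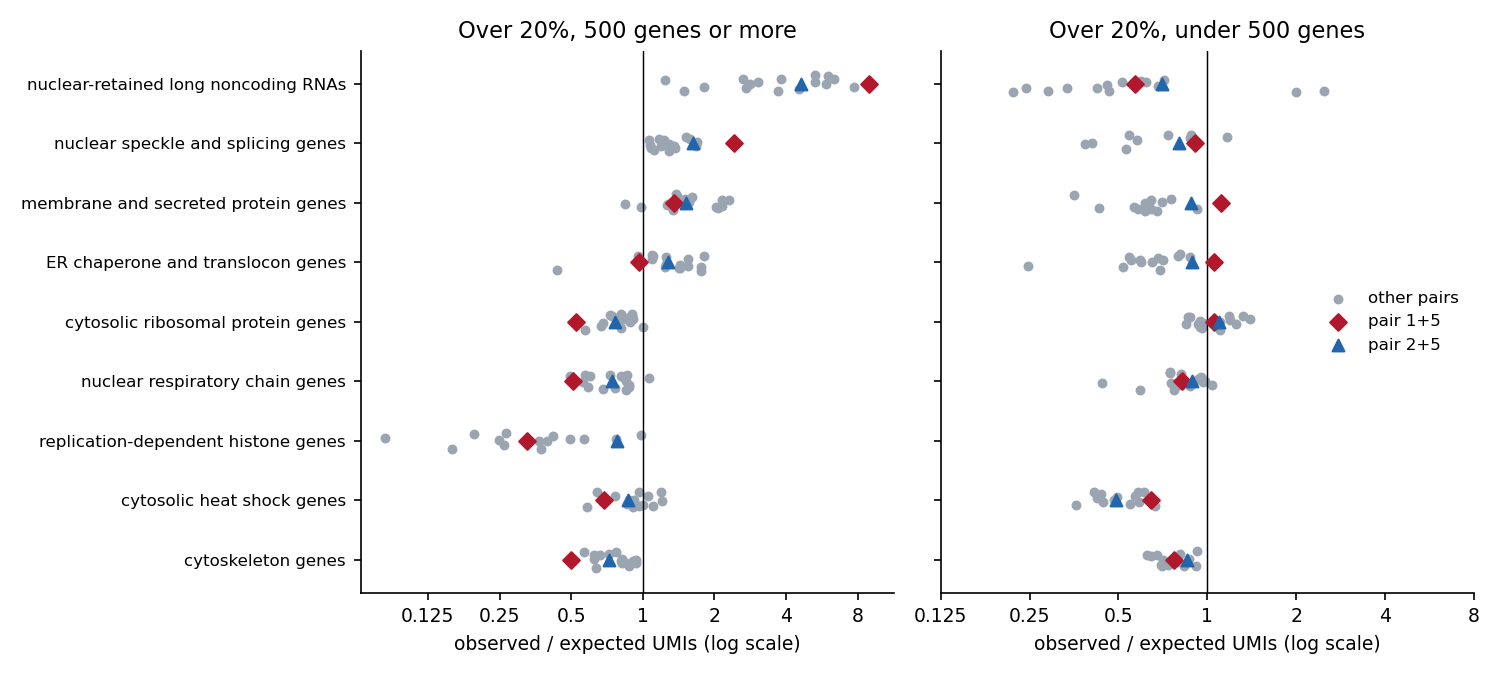
Observed over expected UMIs (log scale) of 9 gene lists in each hashtag pair, left for barcodes with at least 500 genes and right for barcodes with fewer, MTRNR2L genes included. Points are pairs with at least 20 expected UMIs. On the left the nuclear long noncoding list lies above 1 in all 18 pairs with pair 1+5 highest at 8.95, and on the right it lies below 1 in 14 of 16 pairs.

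Interferon-response genes, whose level differs between pairs, were used to ask whether a barcode's RNA followed its own hashtag pair. For each of 3 genes, chosen with earlier results of these data known, the 4 pairs with the lowest level at or under 20% were taken. IDO1, a tryptophan-degrading enzyme, was at 29.3 CPM in the matched cells of its 4 low pairs and at 32.9 CPM, on 9 UMIs, in their 47 gene-rich barcodes. In their 72 gene-poor barcodes it was at 791 CPM (483 to 1222), on 20 UMIs. That lies between the 27.8 CPM of their own pairs and the 1387 CPM of all barcodes pooled. Pair 1+5 alone gave 48 of these barcodes and 14 of these UMIs. Pairs 2+4, 3+5 and 5+7 gave 2, 3 and 1 UMIs, so the value rests largely on 1 pair. IRF1, an interferon-responsive transcription factor, was at 302 CPM (130 to 595) in gene-poor barcodes of its low pairs against 61.3 in their own cells and 857 in the pool. CD74, the MHC class II invariant chain, was at 166 CPM (45.2 to 424) on 4 UMIs, against 19.1 and 467.

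In the 4 highest pairs the gene-poor barcodes lay below their own cells. IDO1 was at 1915 CPM (1468 to 2455) against 4103, CD74 at 618 (377 to 954) against 1311, and IRF1 at 706 (365 to 1233) against 1396. So in both sets gene-poor barcodes sat on the pool's side of their own pair for all 3 genes, with MTRNR2L genes counted in the total. Those genes were 19.2% of the non-mitochondrial UMIs of gene-poor barcodes, which lowers their CPM. Values without them were not computed, and their part in the lower values of the high pairs was not tested. Summed over the high pairs, gene-rich barcodes were at 3950 CPM (3729 to 4181) against 4242 for IDO1, at 1390 (1256 to 1535) against 1413 for IRF1, and at 1672 (1529 to 1825) against 1337 for CD74. In its low pairs CD74 was at 66.9 CPM (40.9 to 103) against 19.9. Single pairs departed in both directions for IDO1 in gene-rich barcodes. Pair 2+5 was at 2464 CPM, on 246 UMIs, against 3725 and pair 5+8 at 2761 (2249 to 3355) against 3504. Pair 7+8 was at 5967 (5458 to 6512) against 4888, and pair 1+5, on 5 UMIs, at 120 (39.0 to 281) against 27.0. Free RNA in the droplets was neither measured nor subtracted.

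Pair 1+5 was among the low pairs of all 3 genes, with 48 of their 72 (IDO1), 66 (CD74) and 71 (IRF1) gene-poor barcodes. With MTRNR2L genes included, its MHC class I list was at 1.69 in gene-poor barcodes, above the 0.56 to 1.32 of the others, and at 1.02 in gene-rich ones. Over all pairs, gene-rich barcodes had the MHC class I list at 1.25, with B2M at 1.27, the MHC class II list at 1.42 (8 of 8 counted genes above 1) and chemokine genes at 1.79. The chemokine sum counts 3 of 18 listed genes, and its values per pair ran from 0.35 to 3.76 (median 1.09), with 2 of 6 pairs below 1. CXCL9 was 3.21-fold higher and CXCL11 2.11-fold. Guanylate-binding proteins were at 1.29, above the MHC class I list. Antiviral genes (1.16), checkpoint and tryptophan genes (1.11), interferon transcription factors (1.09) and negative regulators (1.15) were closer to 1. Giving each barcode equal weight, which raises the part of gene-poor barcodes, turned 5 of these lists over all barcodes below 1: MHC class I (from 1.21 to 0.942), guanylate-binding proteins (0.777), antiviral genes (0.903), checkpoint and tryptophan genes (0.743) and interferon transcription factors (0.852). The negative regulators went from 1.09, with an interval that starts at 0.987 and holds 1, to 0.814. None of the 10 alternatives took the MHC class II or chemokine list of all barcodes below 1. Their lowest values were 1.00 (from 1.35) and 1.26 (from 1.72). In gene-poor barcodes the MHC class II list was at 0.757 (0.598 to 0.945), and without MTRNR2L genes at 0.948 (0.749 to 1.18).

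Within the mitochondrial UMIs, the mix of the 13 mRNAs was nearly kept, with 1 exception. MT-ND6, the complex I subunit read from the opposite DNA strand to the other 12, made up 0.144% of mitochondrial UMIs over 20% against 0.0634% expected, a ratio of 2.27 (2.18 to 2.35). It was above 1 in all 18 pairs (1.61 to 2.98), and at 1.90 in gene-rich and 2.62 in gene-poor barcodes. The other 12 mRNAs lay between 0.87 and 1.19. MT-ND3 (1.16) and MT-ATP6 (1.11) were above 1 in all 18 pairs, and MT-ND4 (0.90) and MT-CO2 (0.96) below 1 in all 18. MT-ND2, at 0.87, was below 1 in 17. MT-ND6 rests on 2757 UMIs, and without knowledge of strand in the counting, reads of transcripts opposite to it cannot be told apart.

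**Figure D5:**
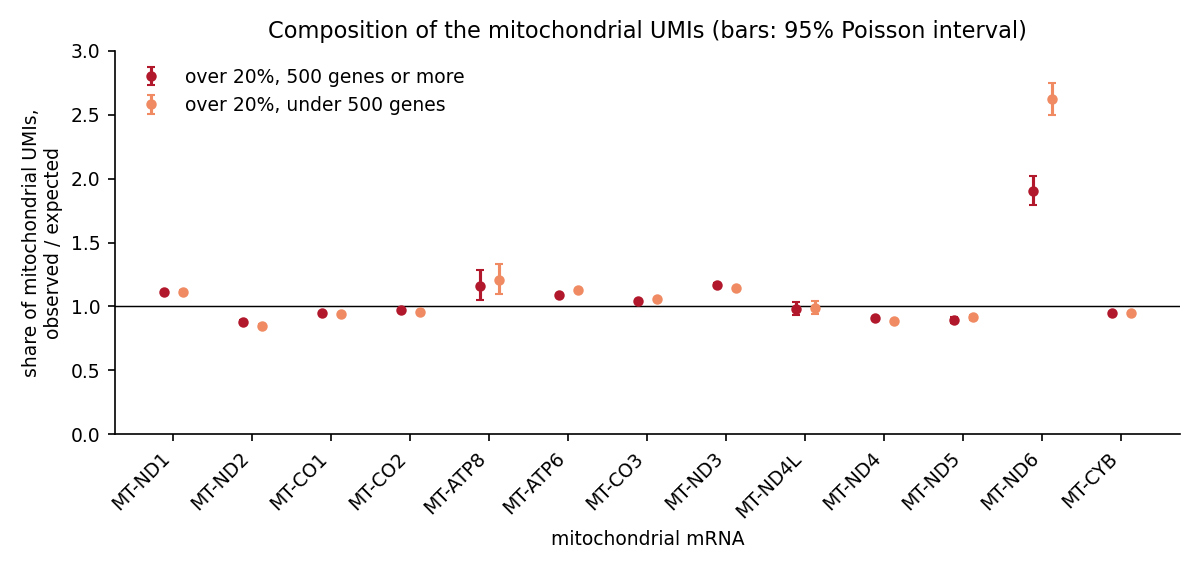
Share of each of 13 mitochondrial mRNAs in the mitochondrial UMIs of barcodes over 20%, divided by the share expected from cells at or under 20% of the same pairs, for barcodes with at least 500 genes and with fewer. Bars are exact 95% Poisson intervals. MT-ND6 stands at 1.90 and 2.62, apart from the other 12.

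The barcodes over 20% held the line's epithelial markers, and most markers of other cell types were at 0. Of 15 epithelial and ovarian carcinoma markers, 13 had UMIs, summing to 4696 CPM against 5340 CPM at or under 20%, with MUC16 and WT1 at 0. KRT18 and KRT8 were the most abundant. Against the matched cells this list was at 0.95 in gene-rich barcodes. In gene-poor barcodes it was at 0.78 without MTRNR2L genes and at 0.63 with them, and 7 of the 15 markers had no UMIs there. T cell markers summed to 87.5 CPM against 60.8, with IL7R and CD8A detected and 10 of 12 at 0, CD3D, CD3E and TRAC among them. IL7R, at 108 UMIs in barcodes with a pair, was 1.61-fold higher than in the matched cells. Myeloid markers summed to 39.8 CPM against 38.0, with 7 of 10 at 0, TYROBP and CSF1R among them. CD14, LYZ and CD68 were detected, on 66 UMIs in all, the most widespread of them in 40 barcodes. They were also detected at or under 20%. Fibroblast, endothelial and B cell markers gave 4, 1 and 2 UMIs in all 576 barcodes, and red cell markers gave 0, under a floor of 1.81 CPM set by 3 UMIs.

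The size of the list ratios depends on where the limit lies and on the deepest barcodes. With a limit of 15% the nuclear-retained long noncoding list of all barcodes went from 3.47 to 1.27, and without the tenth of barcodes with most non-mitochondrial UMIs, an alternative chosen after the data were seen, to 5.94. It was above 1 in each of the 10 alternatives run for this list.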

How the data were processed

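The authors deposited 1 matrix of whole-number UMI counts, with genes and hashtags by barcode, that joins the 2 libraries of the pool and carries no normalisation, as read from its values. The header of the deposited matrix names Cell Ranger 5.0.1, and the submitters' processing notes give Cell Ranger 2.1.1 with GRCh38. Which version made the counts is not settled here. The rule behind the barcode list is not stated in the sources used here.

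All 7804 barcodes were used (500 to 110220 gene UMIs, median 30124.5). A hashtag pair was the 2 highest of 8 hashtags, the second at least 5 times the third plus 1, in pairs of at least 100 barcodes: 18 of 28 possible pairs, 6587 barcodes. This leaves out doublets across pairs. Doublets within a pair cannot be seen, and no other doublet caller was run. Expected UMIs were the composition of cells at or under 20% of the same pair, weighted by the non-mitochondrial UMIs of the barcodes over 20%. Intervals are exact Poisson or Clopper-Pearson at 95%. Pair values needed at least 20 expected UMIs.

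Named genes are the 12 highest and 12 lowest ratios with observed plus expected UMIs of at least 100, the 4 members of each list with most expected UMIs, the 13 mitochondrial mRNAs and the markers. The members, lists and rules were chosen with earlier results of these data known. MTRNR2L transcripts were aligned locally with Biopython 1.88 (GENCODE 29). Python 3.11.15, numpy 2.4.6, scipy 1.17.1 and pandas 2.3.3 were used. Tested on simulated data for all barcodes over 20%, the ratio called 100% of 100 genes raised 4-fold, 100% of 100 lowered 4-fold and 0.0328% of 6097 unchanged genes. The simulation drew the summed UMIs of each pair from its own cells at or under 20%, without differences between barcodes. It therefore gives no rate of false calls for the real barcodes. Alternatives covered the limit, the pair rule, gene number, pairs, weighting and the UMI minimum.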

Additional observations from a re-analysis of the deposited data

How the results depend on the processing

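At a limit of 15% the share of barcodes was 15.1% (30.1% in pair 1+5, 36.0% in pair 2+5), with 45 genes at least 2-fold higher and 44 at least 2-fold lower. The nuclear-retained long noncoding list was then at 1.27, the membrane list at 1.11 and the ribosomal list at 0.990, and 4 lists crossed 1: splicing (0.983), immediate early (0.963), integrated stress response (0.957) and oxidative stress genes (1.07). At 25% the share was 6.77%, 174 genes were lower, and these 3 lists were at 5.35, 1.68 and 0.709. At 30% the values were 6.60%, 209, 5.60, 1.66 and 0.704. With the second hashtag at 10 times the third, the nuclear list was at 3.51 and the ribosomal list at 0.824. With at least 500 genes the shares were 3.25%, 7.95% (pair 1+5) and 16.6% (pair 2+5), and the 3 lists 3.73, 1.55 and 0.810. Without pairs 1+5 and 2+5 the share was 6.04%, 286 genes were higher, and the nuclear and ribosomal lists were at 3.23 and 0.844. With pairs pooled, 16 genes were lower and the 3 lists were at 3.16, 1.37 and 0.857. With equal weight per barcode, 456 genes were lower and the 3 lists were at 3.04, 1.05 and 0.895. Equal weight also took 8 lists under 1: ER chaperones (0.924), cell death (0.994), cholesterol synthesis (0.868), interferon transcription factors (0.852), MHC class I (0.942), guanylate-binding proteins (0.777), antiviral (0.903) and checkpoint genes (0.743). Negative regulators of interferon signalling, whose interval holds 1, went from 1.09 to 0.814. A minimum of 100 UMIs gave 143 higher and 7 lower genes, and of 10 UMIs 1270 and 102, since other numbers of genes were tested. The number of genes that met the minimum can differ in the other alternatives too and is not given here, so the counts of genes are not shares. Of the alternatives chosen after the data were seen, leaving out MTRNR2L genes put the 3 lists at 3.58, 1.52 and 0.857. Leaving out the tenth of barcodes with most non-mitochondrial UMIs gave 225 lower genes and 5.94, 1.54 and 0.714. Apart from those that follow from fewer genes or barcodes, the cause of these changes was not tested. No paired analysis was possible because the 2 libraries come from 1 pool and no result comes from a test. Depth limits the gene-poor barcodes most: 710 genes could be compared there against 6543.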
